A study of Mus musculus with 16 samples.

Results

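The 10 genes described here are Flt3 and 9 further genes tied to lymphoid priming or to leukocyte identity: Il7r, Satb1, Tcf3, Tcf4, Rag1, Dntt, Lsp1, Cd52 and Cd86. They were chosen by gene name, and all 10 were found among the 46078 genes of the merged count table. Of these, 7 passed the filter on low counts that precedes the test, and Il7r, Rag1 and Dntt did not. The table holds read counts per gene from 16 bulk RNA libraries of mouse hematopoietic stem cells (HSCs), sorted from bone marrow by their surface level of MAC-1, an integrin best known on myeloid cells. All samples carry the strain label B6.SJL and the genotype label WT, and no ages were given.

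The cells were sorted as LSK SLAM HSCs, that is, lineage-negative, cKit+, Sca1+, CD48- and CD150+ cells; neither FLT3 nor any other member was part of that gate. Untreated mice at steady state (SS) gave 3 SS MAC-1- and 3 SS MAC-1low libraries. Recipients irradiated with 900 cGy and given 8000 donor LSK cells gave, 4 weeks later, 3 libraries of 4 week MAC-1- HSCs, 4 of 4 week MAC-1low HSCs and 3 of 4 week MAC-1+ HSCs. The comparisons ask whether MAC-1 level and regeneration go along with different expression in HSCs, and here how the lymphoid priming genes and Flt3 take part in that. The sources do not say which replicates came from separate mice, so p-values measure the spread between these libraries.

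FLT3 is a receptor tyrosine kinase for FLT3 ligand. In mouse bone marrow it is known for being absent or low on long-term HSCs and for appearing on multipotent progenitors that lean towards lymphoid and myeloid fates. Lymphoid priming is the low-level transcription, in such progenitors, of genes of the lymphoid program, among them the receptor for IL-7, the RAG recombinase and terminal transferase. E proteins, which bind the E-box motif CANNTG, and chromatin organisers such as SATB1 are known regulators of this step.

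Total counts per library ran from 13781278 to 28580658, and between 14533 and 17576 genes had at least 1 count. SS MAC-1- replicate 3 had the most detected genes and the lowest median correlation with the other libraries. The HSC marker list (6 genes) had counts for all of its genes in every population, with summed levels of 1161 to 1378 CPM (read counts scaled by library size) in SS MAC-1-, 529 to 696 CPM in 4 week MAC-1- and 2069 to 3153 CPM in 4 week MAC-1+ HSCs. Of the B cell markers, Igkc was at 0 in every library. The summed B cell list ran from 6.40 to 172 CPM, the T cell list from 0 to 52.9 CPM and the plasmacytoid dendritic cell list from 5.74 to 54.2 CPM. Ncr1, an NK cell marker, was at 0 in every population, but the summed NK cell list (5 genes) was not. Its median was 43.65 CPM in 4 week MAC-1+ HSCs and ran from 233.5 to 375.9 CPM in the other populations. These sums rest on few genes, since 1 to 3 of the 5 had counts in each library.

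Promoter windows of 6 of the 10 members were taken from the RefSeq table used (build GRCm38.p6): Flt3, Dntt, Il7r, Satb1, Rag1 and Tcf3. Those of Flt3 and Satb1 are printed because the results on MAC-1- HSCs turn on these 2 genes. Each sequence is the 250 bases before the annotated start, 5′ to 3′ on the minus strand, with every match to CANNTG in capitals; the motif reads the same on both strands. The Flt3 window is chr5:147400490-147400739 and the Satb1 window is chr17:51833291-51833540.
Flt3: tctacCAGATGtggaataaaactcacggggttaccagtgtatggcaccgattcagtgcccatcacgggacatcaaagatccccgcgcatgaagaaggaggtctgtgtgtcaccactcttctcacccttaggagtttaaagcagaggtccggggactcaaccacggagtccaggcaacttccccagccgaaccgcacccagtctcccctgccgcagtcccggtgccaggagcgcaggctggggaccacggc
Satb1: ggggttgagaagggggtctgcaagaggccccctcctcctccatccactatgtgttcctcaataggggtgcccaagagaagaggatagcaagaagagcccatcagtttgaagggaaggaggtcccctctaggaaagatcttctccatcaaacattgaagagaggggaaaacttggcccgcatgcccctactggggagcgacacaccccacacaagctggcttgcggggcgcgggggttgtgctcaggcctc

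The Flt3 window held 1 match, at its distal end, and the Satb1 window held 0. Satb1 has 5 starts in the RefSeq table, and only the window of the start nearest the GENCODE gene start was searched. The windows of Dntt, Il7r and Rag1 held 3 matches each and that of Tcf3 held 1. Of all 32851 promoter windows of the same length, 66.2% held at least 1 match, so a match is common. The RefSeq table had no entry for Lsp1, Cd52 and Cd86. Tcf4 was left out of this step, and these 4 members are named only.

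Flt3 (ENSMUSG00000042817, chromosome 5, 147330741 to 147400489, minus strand, GRCm38) was the only tested member whose MAC-1low libraries lay above the MAC-1- libraries both at steady state and 4 weeks after transplantation. SS MAC-1- HSCs had 16, 2 and 2 counts in their 3 libraries, a mean of 0.460 ± 0.618 CPM (SD, n = 3). SS MAC-1low HSCs had 171, 144 and 164 counts, a mean of 8.48 ± 0.435 CPM (SD, n = 3). The lowest SS MAC-1low library, at 8.06 CPM, lay above the highest SS MAC-1- library, at 1.17 CPM, and the 3 SS MAC-1low libraries lay close together.

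After transplantation Flt3 was again lower in MAC-1- HSCs. The 4 week MAC-1- libraries had 28, 57 and 80 counts, or 1.76, 2.16 and 4.83 CPM. The 4 week MAC-1low libraries had 255, 469, 451 and 156 counts, or 15.6, 21.5, 23.2 and 5.85 CPM. These 4 all lay above the 4 week MAC-1- libraries, with replicate 4 nearest to them. The 4 week MAC-1+ libraries had 48, 313 and 592 counts, or 2.28, 19.7 and 23.4 CPM, so replicate 1 fell within the range of the 4 week MAC-1- HSCs and the other two lay well above it.

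**Figure D1:**
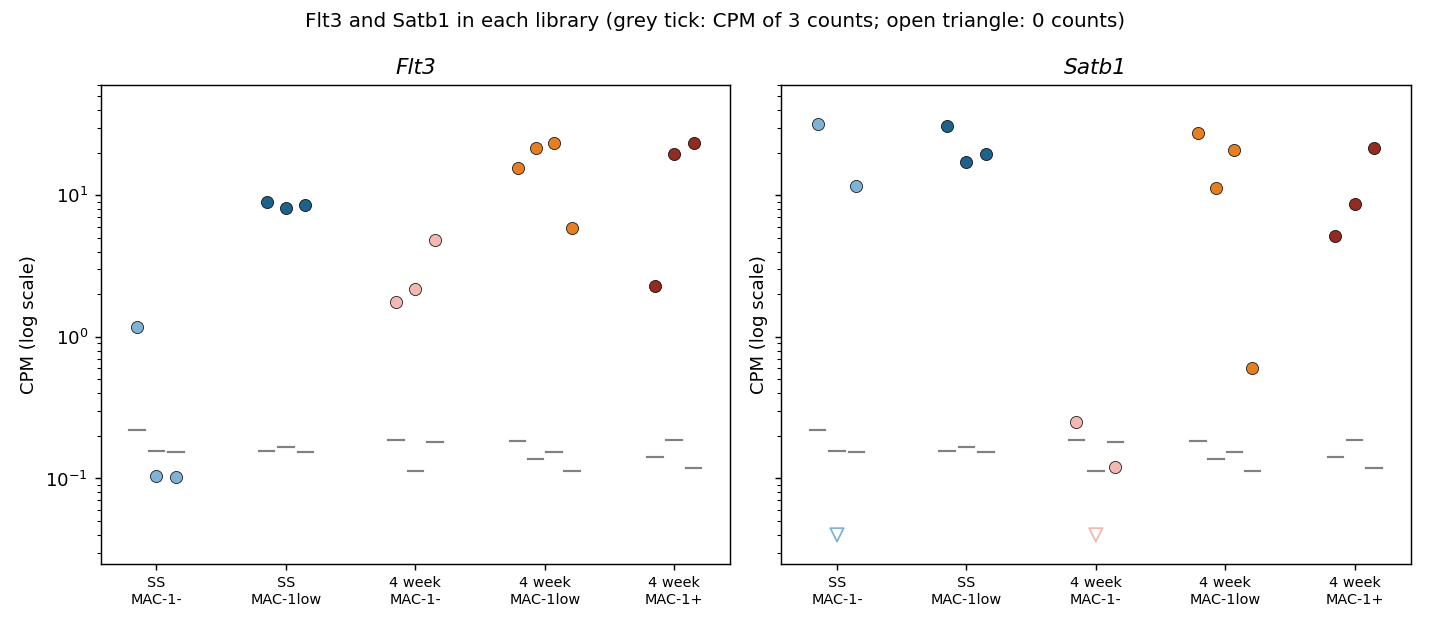
CPM on a log axis of Flt3 (left) and Satb1 (right) in each library of the 5 HSC populations; a grey tick marks the CPM that 3 counts would give in that library, and an open triangle, placed below the axis range of the data, marks 0 counts. Flt3 is at 2 counts in 2 SS MAC-1- libraries and between 8.06 and 8.92 CPM in SS MAC-1low, while Satb1 is at 0 to 4 counts in the 4 week MAC-1- libraries.

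In order of mean level, Flt3 stood at 16.6 ± 7.84 CPM (SD, n = 4) in 4 week MAC-1low, 15.1 ± 11.3 (n = 3) in 4 week MAC-1+, 8.48 in SS MAC-1low, 2.92 ± 1.67 (n = 3) in 4 week MAC-1- and 0.460 in SS MAC-1- HSCs. The first 3 populations overlapped with their neighbour in this order. SS MAC-1low and 4 week MAC-1- did not overlap, nor did 4 week MAC-1- and SS MAC-1-. In bulk samples, fewer cells that carry a transcript and less of it per cell cannot be told apart.

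Among the 8 pairs of populations compared, the Flt3 difference was largest between 4 week MAC-1+ and SS MAC-1- HSCs, with a log2 fold change of 5.04 (SE 1.35) and an adjusted p of 0.0882 by edgeR's quasi-likelihood test, past the threshold of 0.1. Flt3 was the only 1 of the 7 tested members called in this comparison, in which 2.36% of all tested genes were called; 2 of 7 members, Flt3 and Lsp1, had an unadjusted p below 0.05, as did 1914 of all 13661 tested genes. The call depended on which libraries entered. The edgeR adjusted p stayed past the threshold when SS MAC-1- replicate 1 (0.0587) or the first library of the 4 week MAC-1+ HSCs (0.0801) was left out, and missed it, between 0.108 and 0.203, when any other library was. DESeq2 gave an adjusted p of 4.55e-06 for the same difference and limma-voom 0.201, and edgeR gave 0.297 without a filter on low counts and 0.452 with only these 2 populations in the fit.

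Within each condition the difference in Flt3 between MAC-1low and MAC-1- HSCs did not pass the threshold by edgeR. At steady state it was 4.20 on the log2 scale (SE 1.29; unadjusted p 0.00536, adjusted p = 0.443), and 4 weeks after transplantation it was 2.50 (SE 1.15; adjusted p = 0.673). DESeq2 called it in both conditions. Few genes were called by edgeR in either comparison, 0.0146% at steady state and 0.278% at 4 weeks, and 0 of 7 members were among them in each; at an unadjusted p below 0.05 there were 1 and 3 members, beside 9.36% and 7.25% of all tested genes, so the count at steady state was near the background. DESeq2 called 1 member at steady state, among 936 of 31871 genes, and 3 members at 4 weeks, among 557. The 31871 are all genes with at least 1 count, also any left without an adjusted p. This number can therefore exceed that of the genes that could be called. limma-voom called 0 members in both.

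All 7 MAC-1low libraries of both conditions lay above all 6 MAC-1- libraries for Flt3, the nearest being 5.85 CPM in 4 week MAC-1low and 4.83 CPM in 4 week MAC-1-. Across all tested genes, 0.373% were without overlap in this split of 13 libraries, and Flt3 was the only one of the 7 members. This split and the next value were chosen after the levels had been seen. The mean of the SS and 4 week differences was 3.35 for Flt3 (SE 0.87; edgeR adjusted p = 0.233), 1.09 for Lsp1 and 3.77 for Satb1. In that comparison 0.0586% of all genes and 0 of 7 members were called by edgeR, with 3 members and 10.3% of all genes at an unadjusted p below 0.05.

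Flt3 also differed between the MAC-1- populations without overlap, 4 week MAC-1- being higher by 2.66 on the log2 scale (SE 1.21; edgeR adjusted p = 0.463). Without SS MAC-1- replicate 1 this difference was 4.73. Between the MAC-1low populations the log2 difference was 0.96 (SE 1.08), and between MAC-1+ and MAC-1low at 4 weeks it was -0.13 (SE 1.06). Both were smaller than their errors.

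The genes whose levels were ordered most like Flt3 across the 16 libraries were Gosr2, Hectd3 and Arhgap1, with Spearman's rho of 0.844, 0.818 and 0.812 among 9679 genes with a mean of at least 100 counts. Gosr2, which encodes a Golgi SNARE protein, averaged 3.44 CPM in SS MAC-1- and 28.6 CPM in SS MAC-1low HSCs. Among the members, the ordering of Lsp1 was the nearest to that of Flt3 (rho 0.647) and that of Tcf4 the farthest (rho -0.0559). These are descriptions over libraries that share populations and depth.

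Il7r, the gene of the IL-7 receptor alpha chain, had 0 counts in all 16 libraries. A count of 0 allows up to 3 counts, which is 0.112 to 0.220 CPM depending on the library; such limits cover counting error only, since amplified reads without molecular identifiers are not independent molecules. Rag1, a subunit of the recombinase that assembles antigen receptor genes, had 2 counts, both in SS MAC-1- replicate 3. The annotation places 80 exon bases of Rag1 in B230118H07Rik on the same strand, a gene with 58758 counts, so the 2 Rag1 counts are uncertain. Dntt, which encodes terminal transferase, had 1 count in SS MAC-1- replicate 3 and 2 counts in 4 week MAC-1+ replicate 2, and 0 in the other 14 libraries. SS MAC-1- replicate 3 was also the library with counts for the most T cell markers, 4 of 6, summing to 37.7 CPM, and the part of this in the Rag1 and Dntt counts was not tested. No difference in these 3 genes between populations was detectable at this depth.

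**Figure D2:**
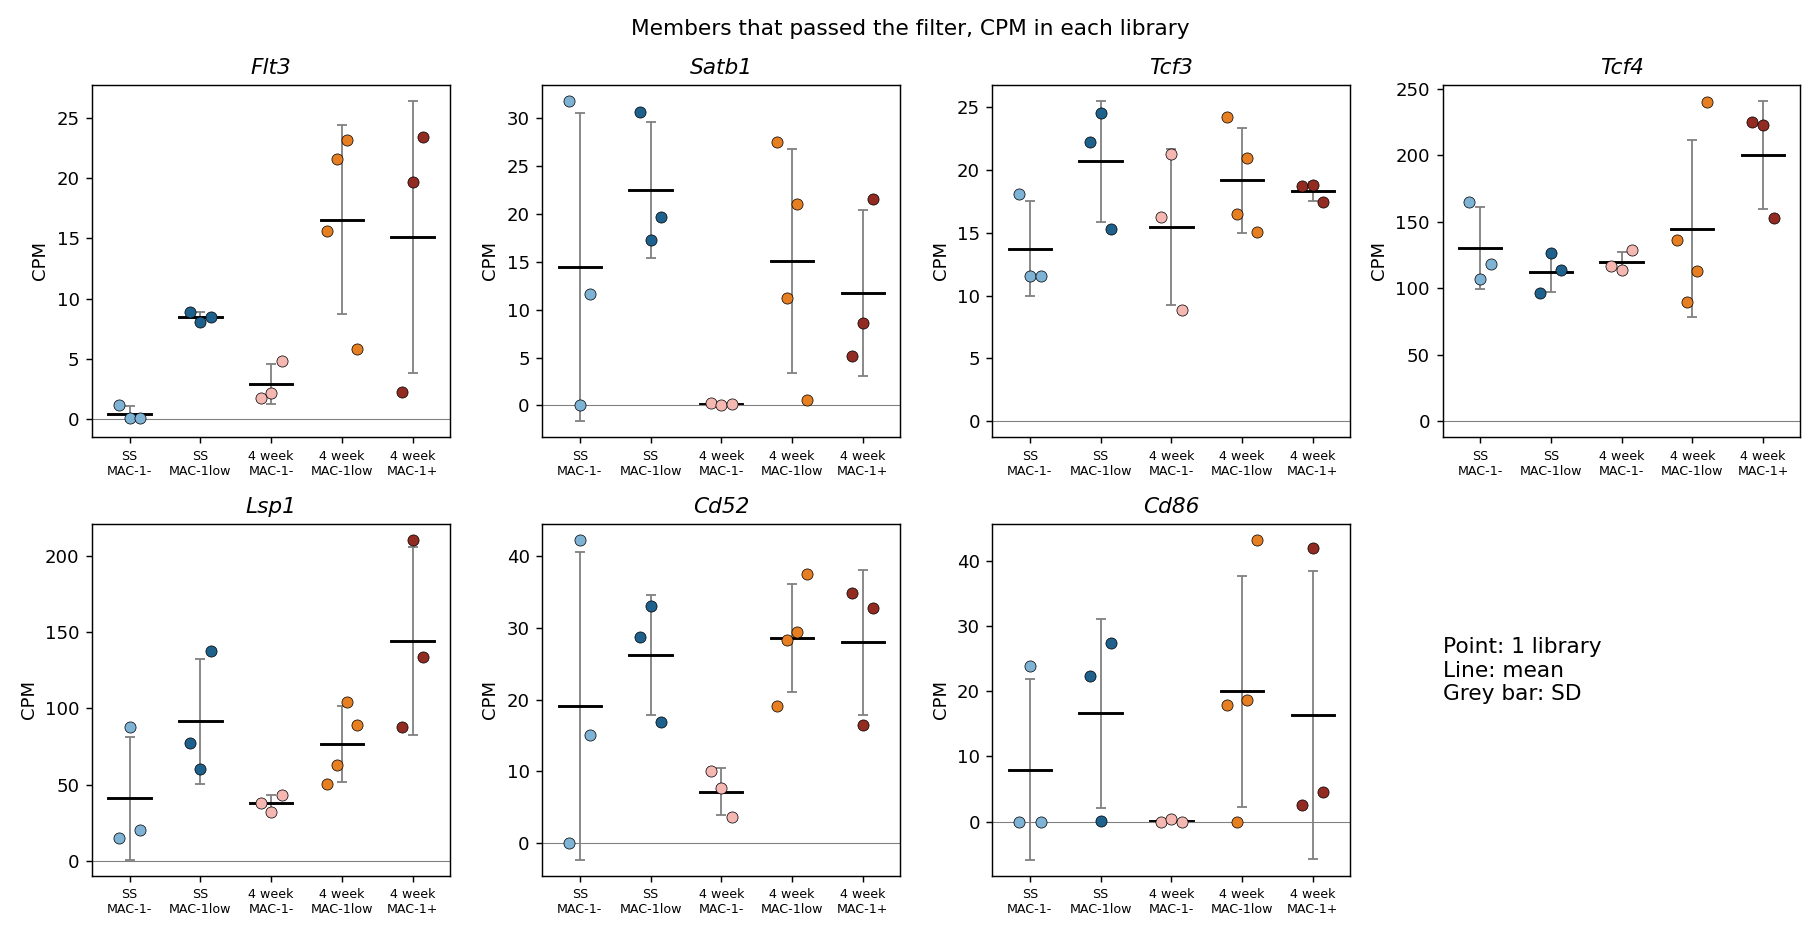
CPM of the 7 members that passed the filter, by HSC population; each point is 1 library, the black line is the mean and the grey bar the SD (n = 3, or 4 for 4 week MAC-1low). Tcf3 and Tcf4 vary least between libraries, while Satb1, Cd52 and Cd86 reach 0 in some libraries of a population whose other libraries are above 10 CPM.

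Satb1 (ENSMUSG00000023927, chromosome 17, 51736187 to 51833290, minus strand) encodes a chromatin organiser needed for lymphocyte development. Only in 4 week MAC-1- HSCs was it near absent from every library, and Cd86, with a mean of 0.139 CPM, was near absent there too. The 4 week MAC-1- libraries had 4, 0 and 2 counts of Satb1, a mean of 0.124 ± 0.126 CPM (SD, n = 3). The SS MAC-1- libraries had 433, 0 and 226 counts, and the SS MAC-1low libraries 586, 309 and 381, or 22.5 ± 7.09 CPM (SD, n = 3). At 4 weeks, MAC-1low HSCs had 448, 245, 408 and 16 counts and MAC-1+ HSCs had 108, 137 and 545. All 7 of these 4 week libraries lay above the MAC-1- libraries of that time, although MAC-1low replicate 4, at 0.600 CPM, came close to the highest of them at 0.251 CPM, and SS MAC-1- replicate 2 was as low.

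At 4 weeks the Satb1 difference between MAC-1+ and MAC-1- HSCs was 6.55 on the log2 scale (SE 2.06; edgeR adjusted p = 0.148), which missed the threshold. The fold rests on 6 counts in the whole 4 week MAC-1- group. It passed by DESeq2 (adjusted p 7.65e-04), by limma-voom (0.0912) and by edgeR without a filter on low counts (0.0452) or without SS MAC-1- replicate 2 (0.0504). The log2 fold change of MAC-1low against MAC-1- HSCs at 4 weeks was 6.91 (SE 2.06; edgeR adjusted p = 0.374), and that of 4 week against SS MAC-1- HSCs was -6.85 (SE 2.08; edgeR adjusted p = 0.283). At steady state the MAC-1low to MAC-1- difference was 0.64 (SE 1.59). The interaction, that is the difference between these MAC-1low effects at 4 weeks and at steady state, was 6.27 for Satb1 (SE 2.44; unadjusted p 0.0215, edgeR adjusted p = 0.486). It was the only 1 of 7 members with an unadjusted p below 0.05 for the interaction, a count near the background of 8.73% of all tested genes. edgeR called 0.0586% of all genes and 0 members, DESeq2 1 member, Satb1, among 753 genes, and limma-voom 0 members.

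The 2 predicted genes that share exon bases with Satb1 had few counts, 3 for Gm36931 on the same strand and 97 for Gm6934 on the other. The E protein genes behaved otherwise. Tcf3, the gene of E12 and E47, was measured in every library between 147 and 561 counts. Its mean ran from 13.8 ± 3.79 CPM (SD, n = 3) in SS MAC-1- to 20.7 ± 4.81 (n = 3) in SS MAC-1low HSCs, and all neighbours in this order overlapped. The log2 difference between MAC-1+ and MAC-1- HSCs at 4 weeks was 0.24 (SE 0.60; edgeR adjusted p = 0.943).

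Tcf4, the gene of E2-2 on chromosome 18, a regulator best known in plasmacytoid dendritic cells, had the most counts of the members, 1853 to 6417 per library. The 4 week MAC-1+ libraries stood at 225, 223 and 153 CPM, above the 4 week MAC-1- libraries at 117, 114 and 128 CPM. The difference was 0.74 on the log2 scale (SE 0.33; unadjusted p 0.0386, edgeR adjusted p = 0.339). In 4 week MAC-1low HSCs, 3 libraries ran from 89.8 to 136 CPM and replicate 4 stood at 240.5 CPM, the highest Tcf4 level of the 16. That library also had the highest Cd86 and Cd52 of its population and the lowest Flt3, Satb1 and Tcf3. Against SS MAC-1low HSCs, Tcf4 in 4 week MAC-1+ HSCs was higher by 0.83 (SE 0.33; edgeR adjusted p = 0.334), the only 1 of 7 members with an unadjusted p below 0.05 there, near the background of 12.1% of all tested genes. In this comparison 1.42% of all genes and 0 of 7 members were called by edgeR, and DESeq2 and limma-voom also called 0 members.

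Lsp1 (ENSMUSG00000018819, chromosome 7, 142460809 to 142494867, plus strand) encodes an F-actin binding protein of leukocytes. At 4 weeks its mean level was 37.8 ± 5.58 CPM (SD, n = 3) in MAC-1-, 76.6 ± 24.6 (n = 4) in MAC-1low and 144 ± 61.9 (n = 3) in MAC-1+ HSCs. The 4 week MAC-1- libraries stood at 37.7, 32.3 and 43.4 CPM and the 4 week MAC-1+ libraries at 88.0, 210.5 and 134 CPM, without overlap. At steady state MAC-1- HSCs gave 15.3, 87.5 and 20.4 CPM and MAC-1low HSCs 77.1, 59.96 and 138 CPM, and replicate 2 of SS MAC-1- lay inside the range of the MAC-1low libraries.

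Between MAC-1+ and MAC-1- HSCs at 4 weeks the Lsp1 log2 difference was 1.93 (SE 0.60), with an edgeR adjusted p of 0.137. It passed the threshold by DESeq2 (0.0151), by limma-voom (0.040), and by edgeR without a filter on low counts (0.0509), when replicate 1 (0.0996) or replicate 2 (0.0374) of SS MAC-1- was left out. Against SS MAC-1- HSCs, 4 week MAC-1+ HSCs were higher by 1.81 (SE 0.59; edgeR adjusted p = 0.179). Without SS MAC-1- replicate 2 that difference was 3.01 with an adjusted p of 0.0216.

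Cd52 (chromosome 4, 134082448 to 134095082, minus strand) encodes a small glycoprotein on the surface of lymphocytes and other leukocytes. It was lowest in 4 week MAC-1- HSCs, at 10.1, 7.70 and 3.68 CPM. The 4 week MAC-1low libraries ran from 19.1 to 37.5 CPM and the 4 week MAC-1+ libraries stood at 34.8, 16.4 and 32.8 CPM, so neither overlapped with 4 week MAC-1- HSCs. SS MAC-1- HSCs spread from 0 counts in replicate 1 to 807 in replicate 2. The log2 differences from 4 week MAC-1- were 1.97 for MAC-1+ (SE 1.24; edgeR adjusted p = 0.544) and 2.00 for MAC-1low HSCs (SE 1.19; edgeR adjusted p = 0.820).

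Cd86 (chromosome 16, 36603869 to 36666081, minus strand) encodes a costimulatory ligand of antigen-presenting cells. It was present in some libraries and absent in others of the same population. SS MAC-1- HSCs had 0, 457 and 0 counts, SS MAC-1low HSCs had 429, 1 and 531, and 4 week MAC-1low HSCs had 292, 0, 364 and 1154. The 4 week MAC-1- libraries had 0, 11 and 0 counts, and the 4 week MAC-1+ libraries 54, 667 and 116. The difference between the last 2 populations was 6.73 on the log2 scale with an SE of 3.08 (edgeR adjusted p = 0.360), and the MAC-1+ libraries of that time all lay above the MAC-1- libraries. This difference was 4.58 when replicate 2 of 4 week MAC-1+ was left out. It was 11.3 when replicate 2 of 4 week MAC-1- was left out. That leaves only libraries at 0 counts in the 4 week MAC-1- group, so the size of this fold was not measured.

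A population with 1 library at 1 count or fewer and another at 100 or more was found 3 times for Cd86, once each for Satb1 and Cd52 (both in SS MAC-1-), and never for Flt3, Tcf3, Tcf4 or Lsp1. Among all tested genes, 32.8% showed this in at least 1 population and 5.84% in at least 3. The coefficient of variation over the 16 libraries ranged from 0.256 for Tcf3 and 0.335 for Tcf4 to 0.938 for Flt3 and 1.22 for Cd86.

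Levels can be compared between genes only per length. In CPM per kb of exon, averaged over the 16 libraries, Cd52 stood at 18.7 and Lsp1 at 15.1, followed by Tcf4 at 5.17, Tcf3 at 4.36, Cd86 at 3.47, Flt3 at 1.49 and Satb1 at 0.679. The leukocyte surface and cytoskeletal genes Cd52 and Lsp1 were thus the highest members and the receptor Flt3 one of the lowest on this scale. Length was that of all annotated exons of a gene merged, not of 1 transcript. It was 27382 bases for Tcf4, 19027 for Satb1 and 1187 for Cd52, and the order depends on it. In CPM alone Tcf4 had the highest mean of the members, 142 CPM.

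**Figure D3:**
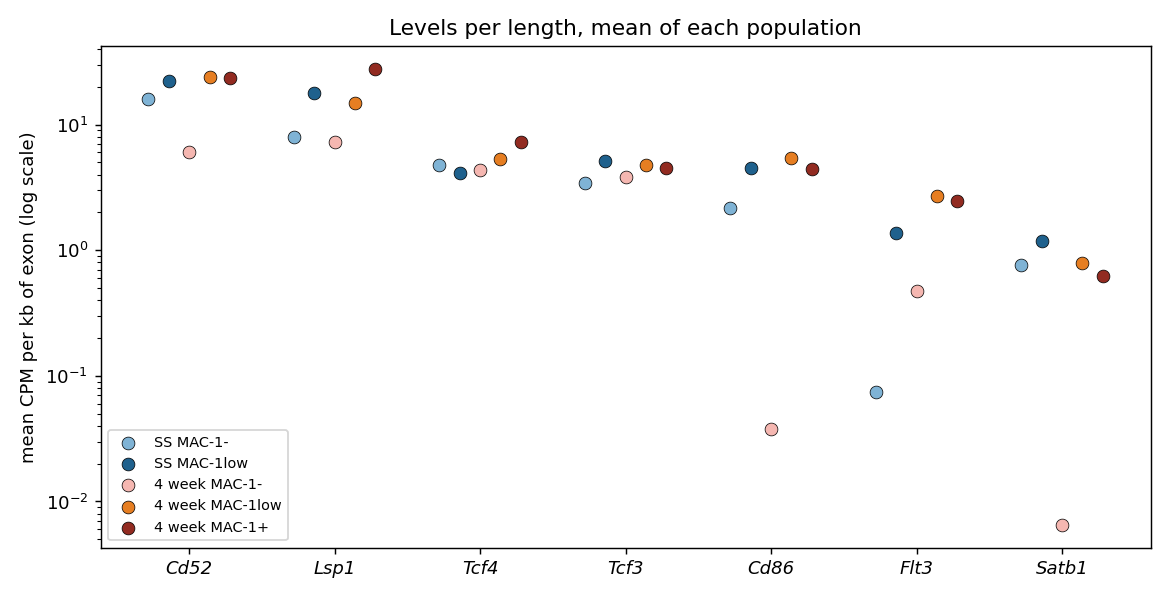
Mean CPM per kb of exon (log axis) of the 7 tested members in each of the 5 HSC populations, members ordered by their mean over the 16 libraries. Each point is the mean of 3 libraries, or of 4 for 4 week MAC-1low; the 4 week MAC-1- point is the lowest of the 5 for Cd52, Lsp1, Cd86 and Satb1, and the SS MAC-1- point is the lowest for Flt3 and Tcf3.

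Between MAC-1+ and MAC-1- HSCs at 4 weeks, edgeR called 3.25% of all tested genes and 0 of 7 members. DESeq2 called 4 members (Flt3, Satb1, Lsp1 and Cd86) among 1605 genes, out of 31871 with any count. limma-voom called 2 (Satb1 and Lsp1) among 866 of 13661. At an unadjusted edgeR p below 0.05 there were 4 members (Satb1, Lsp1, Tcf4 and Cd86), beside 13.4% of all genes. All 7 log2 differences were positive, with a median of 1.97 beside 0.07 over all tested genes. The libraries did not overlap for 5 of 7 members, Satb1, Tcf4, Lsp1, Cd52 and Cd86, against 21.7% of all tested genes. For MAC-1low against MAC-1- HSCs at 4 weeks the libraries did not overlap for 4 members, Flt3, Satb1, Lsp1 and Cd52, against 10.8% of all genes, and the median of the members was 2.00 beside 0.05. At steady state 1 member, Flt3, did not overlap between MAC-1low and MAC-1- HSCs, against 11.3% of all genes. These comparisons share libraries, and members at 0 in the MAC-1- libraries passed the filter through their level elsewhere, so these counts describe the members and support no statement on the list.

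The other comparisons gave no member call by edgeR. Between 4 week MAC-1- and SS MAC-1- HSCs 0.432% of all genes were called and 2 members, Flt3 and Satb1, had an unadjusted p below 0.05, beside 10.4% of all genes. DESeq2 called both, among 1078 of 31871 genes, and limma-voom neither, and the libraries did not overlap for 1 of 7 members, Flt3, against 16.6% of all genes. Between the MAC-1low populations 0.0439% of genes were called, and between the MAC-1+ and MAC-1low HSCs of 4 weeks 0.0% were called by edgeR, where DESeq2 called 452 genes, limma-voom 1 and 936 had an unadjusted edgeR p below 0.05; 0 members were called in these 2 comparisons by any of the 3 tools, and 0 had an unadjusted edgeR p below 0.05. In the joint test of the 5 populations 2.22% of genes and 0 members were called by edgeR, with Flt3 (unadjusted p 0.0108, adjusted p = 0.201), Satb1 (adjusted p = 0.358) and Lsp1 (adjusted p = 0.274) at an unadjusted p below 0.05, beside 13.8% of all genes. DESeq2 called those 3 among 1875 genes, and limma-voom called 0 members.

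**Figure D4:**
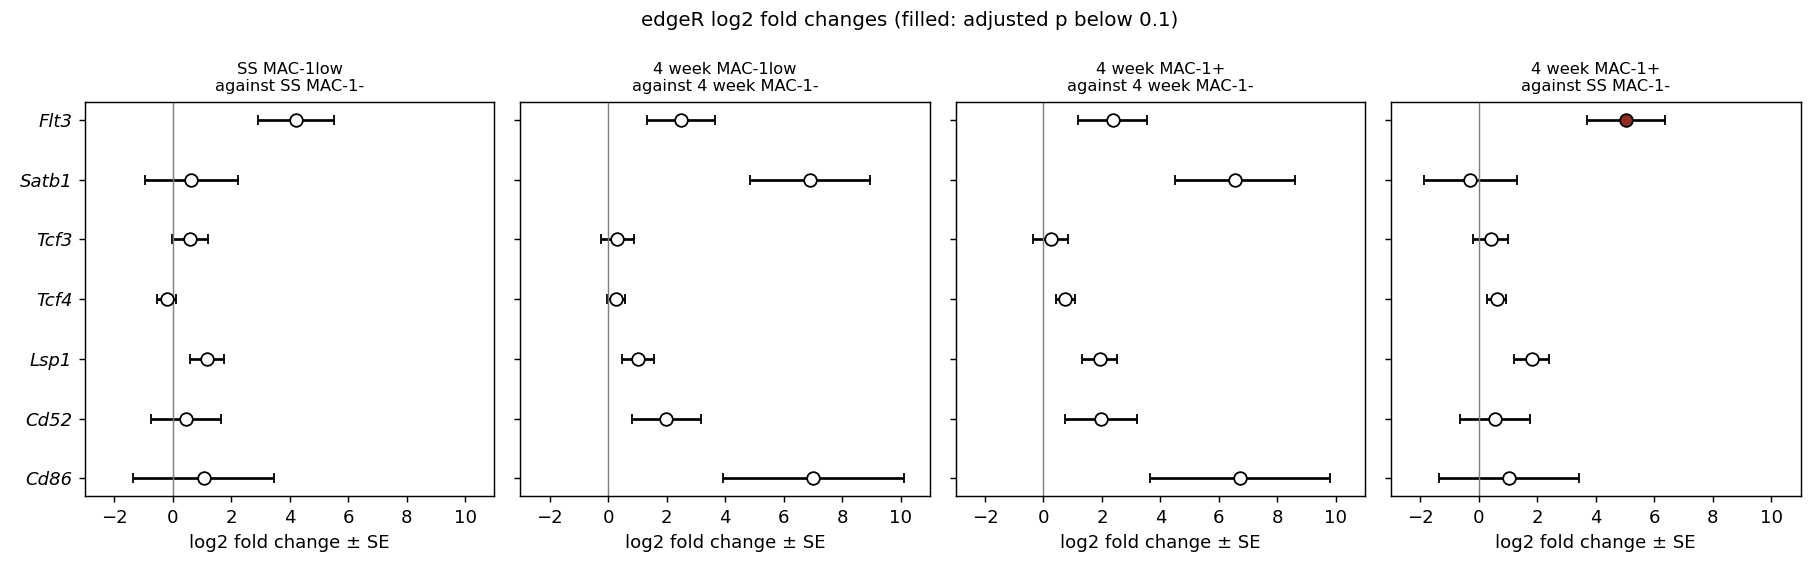
edgeR log2 fold changes with their SE (bars) of the 7 tested members in 4 comparisons; filled points have an adjusted p below 0.1. The single filled point is Flt3 in 4 week MAC-1+ against SS MAC-1- HSCs, at 5.04, and the widest bars belong to Cd86 and Satb1.

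Genes that work with the members were counted in 5 lists; between MAC-1+ and MAC-1- HSCs at 4 weeks, the counts of called genes below stand beside 3.25% of all tested genes. Of 8 genes that pair with or restrain E proteins, all 8 were tested, and 1 was called between MAC-1+ and MAC-1- HSCs at 4 weeks. That gene, Lyl1, a basic helix-loop-helix partner of E proteins, stood at 9.88 ± 4.8 CPM (SD, n = 3) in 4 week MAC-1- and 32.4 ± 6.98 (n = 3) in 4 week MAC-1+ HSCs, and rose by 1.71 on the log2 scale (SE 0.49; edgeR adjusted p = 0.0969). Among MAC-1- HSCs it was also lower at 4 weeks than at steady state, with a log2 fold change of -2.38 (SE 0.50; edgeR adjusted p = 0.0805). The other 7 genes of the list, which hold the ID proteins that block E protein binding, were not called in any comparison by edgeR.

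In FLT3 and IL-7 receptor signalling, 17 of 18 genes were tested and 2 were called between MAC-1+ and MAC-1- HSCs at 4 weeks, both higher. Socs2, a feedback inhibitor of cytokine receptors, rose by 1.89 (SE 0.42; edgeR adjusted p = 0.0292), from 84.6 ± 11.5 to 312 ± 88.8 CPM (SD, n = 3 each). Kit, the receptor for stem cell factor, rose by 0.99 (SE 0.26; edgeR adjusted p = 0.0752); it was part of the sort gate. Kit was also lower in MAC-1- HSCs at 4 weeks than at steady state, with a log2 fold change of -1.22 (SE 0.27; edgeR adjusted p = 0.0927), and its mean of 309 CPM in 4 week MAC-1+ HSCs lay below the 363 CPM of SS MAC-1- HSCs. The kinase gene Jak1 rose by 1.08 from SS MAC-1- to 4 week MAC-1+ HSCs (SE 0.25; edgeR adjusted p = 0.0596), as did Socs2 by 1.76 (SE 0.41; edgeR adjusted p = 0.0595). These were the 2 of 17 called against SS MAC-1- HSCs, beside 2.36% of all tested genes. Against SS MAC-1low HSCs 1 of 17 was called, again Socs2, beside 1.42% of all tested genes.

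Of 12 genes of V(D)J recombination, the joining process that RAG1 begins, 10 were tested and 1 was called between MAC-1+ and MAC-1- HSCs at 4 weeks. Hmgb1, a chromatin protein also used outside recombination, fell by 0.85 on the log2 scale (SE 0.17; edgeR adjusted p = 0.0181), from 983 ± 125 to 546 ± 115 CPM (SD, n = 3 each). Of 26 other lymphoid progenitor genes only 13 were tested, and 2 were called there. Cd27, a TNF receptor family member of lymphocytes and progenitors, was higher by 1.95 (SE 0.46; edgeR adjusted p = 0.0418) and Mef2c, a transcription factor with roles in lymphoid and myeloid choice, fell by 1.2 (SE 0.34; edgeR adjusted p = 0.0940).

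Of 12 costimulation and leukocyte surface genes, 8 were tested and 2 were called, both higher, between MAC-1+ and MAC-1- HSCs at 4 weeks. Ptprc, the gene of CD45, rose by 1.35 (SE 0.28; edgeR adjusted p = 0.0210). Cd53, a leukocyte tetraspanin, stood at 33.3 ± 22.6 CPM (SD, n = 3) in 4 week MAC-1-, 331 ± 112 (n = 4) in 4 week MAC-1low and 624 ± 39.3 (n = 3) in 4 week MAC-1+ HSCs, and rose by 4.23 between the first and the last (SE 1.14; edgeR adjusted p = 0.0780). In SS MAC-1- HSCs Cd53 had 1, 0 and 0 counts, and in SS MAC-1low HSCs 303, 412 and 0. It was the only gene of the 5 lists called in the mean of the SS and 4 week MAC-1low differences (log2 fold change 6.14, SE 1.04; edgeR adjusted p = 0.0671).

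Markers of other cell types also differed in level between the populations in which Lsp1, Cd52 and Cd86 were low and high. The summed neutrophil list (5 genes) ran from 12.9 to 67.1 CPM in 4 week MAC-1- and from 135 to 5878 CPM in 4 week MAC-1+ HSCs, and its highest value elsewhere was 143 CPM. The conventional dendritic cell list (5 genes) ran from 51.0 to 84.4 CPM in 4 week MAC-1- and from 445 to 644 CPM in 4 week MAC-1+ HSCs, with Itgax at 0 in both. Of its 5 genes, 2 to 4 had counts in each 4 week MAC-1- library and 2 or 3 in each 4 week MAC-1+ library, so its sums rest on few genes. The monocyte or macrophage list (5 genes) ran from 346 to 575 CPM and from 436 to 704 CPM in these populations. Csf1r was at 0 in 4 week MAC-1+ HSCs, and Ccr2 and Ly6c2 were at 0 in 4 week MAC-1- HSCs. In 4 week MAC-1- replicate 1 only 1 of the 5 monocyte or macrophage genes had counts. The NK cell list (5 genes) ran from 323 to 642 CPM in 4 week MAC-1- and from 16 to 176 CPM in 4 week MAC-1+ HSCs, with Ncr1 at 0 in both. Klrb1c was also at 0 in 4 week MAC-1- HSCs, and Gzma and Prf1 in 4 week MAC-1+ HSCs. In each of these libraries 1 or 2 of the 5 NK cell genes had counts, so the sums rest on few genes. The megakaryocyte list (5 genes) was also higher in 4 week MAC-1- HSCs, 4060 to 6557 CPM in 4 week MAC-1- against 138 to 188 CPM in 4 week MAC-1+ HSCs, and the erythroblast list stayed between 0.112 and 82.2 CPM in all populations. The part of these genes in the members' differences was not tested. Flt3 and Satb1 in 4 week MAC-1+ HSCs were both highest in replicate 3, the library with 5878 CPM of neutrophil markers, and Lsp1 and Cd86 in replicate 2, with 676 CPM. Cd52, at 34.8 CPM, and Tcf4, at 225 CPM, were highest in replicate 1, with 135 CPM of these markers. Tcf3 stood at 18.75 CPM in replicate 1 and 18.78 CPM in replicate 2.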

How the data were processed

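Libraries were made by the authors with SMART-Seq v4 and Nextera XT. Reads went through the nf-core RNA-seq pipeline with STAR; no source used here names the counter, the genome build or the annotation. The deposited values are raw read counts per gene in 1 merged table; without molecular identifiers, amplified copies cannot be told from separate molecules. Members were matched by gene name; 98.2% of gene IDs matched GENCODE M21 (GRCm38), used for positions and exon lengths.

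edgeR 4.0.16 (TMM scaling, default expression filter, robust quasi-likelihood test, R 4.3.3) was fitted to all 16 libraries with a mean per population and tested 13661 genes. Benjamini-Hochberg adjusted p-values run over all of them, with a threshold of 0.1. SE was taken from the log2 fold change and F. CPM use TMM-scaled totals. DESeq2 1.42.0, limma 3.58.1 (voom with sample weights), other scalings, filters and covariates, counts thinned to the smallest total, and each library left out were the alternatives. The fit was also run on simulated data, with changes placed only in genes with a mean of at least 100 counts. No result given here rests on that run. Named genes were the 10 members, list genes called in a comparison, and the 3 genes ordered most like Flt3. Members and lists were chosen with earlier results of these data known. Some list genes are not reported here.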

Additional observations from a re-analysis of the deposited data

How the results depend on the processing

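Of 675 alternative values for 26 results, 601 kept their direction and side of the threshold, or, for numbers of called members, stayed within 1.5 times the number reported, whichever members were called. Without SS MAC-1- replicate 2, the 1 member called in 4 week MAC-1+ against SS MAC-1- was Lsp1 in place of Flt3. By DESeq2 3 members were called in the joint test, 4 in MAC-1+ against MAC-1- at 4 weeks, 3 in MAC-1low against MAC-1- at 4 weeks, 1 in SS MAC-1low against SS MAC-1-, 2 in 4 week against SS MAC-1-, 1 in the interaction and 2 in 4 week MAC-1+ against SS MAC-1-. Without a filter on low counts the numbers were 2 in the joint test, 2 in MAC-1+ against MAC-1- at 4 weeks, 1 in MAC-1low against MAC-1- at 4 weeks, 1 in 4 week against SS MAC-1- and 0 in 4 week MAC-1+ against SS MAC-1-. limma-voom called 2 members in MAC-1+ against MAC-1- at 4 weeks. In 4 week MAC-1+ against SS MAC-1- 0 members were called by limma-voom, with only the groups compared, or at an adjusted p below 0.05. The cause of these differences was not tested. With each library left out in turn, 0 to 2 members were called in MAC-1+ against MAC-1- at 4 weeks, and 0 to 1 in the joint test and in 4 week MAC-1+ against SS MAC-1-. The Tcf3 difference between MAC-1+ and MAC-1- HSCs at 4 weeks ran from -0.033, without 4 week MAC-1- replicate 3, to 0.545, without replicate 2.

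Libraries of the same replicate number did not deviate together (median r 0.00721 over 30 pairs, from -0.0249 to 0.0397), so no pairing by these numbers was seen. Pairing by mouse or by sort, which the labels do not give, was not tested and may not follow the replicate numbers. With a replicate block 0 members were called in 4 week MAC-1+ against SS MAC-1-, in place of 1, and no other number of called members changed. Over all genes, edgeR called 444 in MAC-1+ against MAC-1- at 4 weeks, DESeq2 1605 of the 31871 genes with any count and limma-voom 866. In 4 week MAC-1+ against SS MAC-1- they called 323, 1703 and 190. Fitting only SS MAC-1- and 4 week MAC-1- gave no value for Satb1. Il7r, Rag1 and Dntt did not pass the filter on low counts, so no difference in them could be tested. The reason for their few or missing counts was not tested.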
